A study of Saccharomyces cerevisiae with 64 samples.

Results

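The mitochondrial ribosomal protein genes of budding yeast, Saccharomyces cerevisiae, were taken as all entries of the deposited RNA table with a gene name that starts with MRPL, MRPS or RSM followed by a digit. This gave 54 of 6931 entries, of which 34 encode proteins of the large subunit (the MRPL genes) and 20 encode proteins of the small subunit (the MRPS and RSM genes). The rule used names and no measured value. All 54 had a test in each of the 3 comparisons, and no filter on low values was applied.

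Mitochondria carry a ribosome of their own, which makes a small set of hydrophobic proteins encoded by mitochondrial DNA, mainly core subunits of the respiratory chain and of ATP synthase. Its ribosomal RNAs and the protein Var1 are encoded in the mitochondrion, while nearly all of its other proteins are encoded in the nucleus, made in the cytosol and imported. Many of these proteins descend from bacterial ribosomal proteins, and others are found in mitochondrial ribosomes and not in bacterial ones. In yeast, Puf3, an RNA-binding protein, binds the mRNAs of many mitochondrial ribosomal protein genes, and growth on glucose lowers the expression of genes for respiration.

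The series compared control cells with cells in which 1 of the forkhead transcription factors, Fkh1 or Fkh2, was overexpressed (OE), and holds 64 libraries, 58 of DNA and 6 of polyadenylated RNA. Only the RNA is used here, with 2 libraries in each of 3 groups. The groups are Fkh1 OE (strain label WT pGAL-Fkh1), Fkh2 OE (WT pGAL-Fkh2) and no OE (WT pGAL), where pGAL is a galactose-inducible promoter. Cells of every group were grown in raffinose, blocked in G1 with 7.5 nM of the mating pheromone α-factor for 3 h at 25 °C, and then kept in 2% galactose with α-factor for 2 h. The RNA was taken in this G1 arrest. All groups are thus in galactose, and none shows the level before induction.

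The deposited table holds 1 FPKM value (fragments per kilobase of transcript, scaled to the number of mapped fragments) for each gene and group, so levels are per length, no spread between the 2 libraries of a group can be given, and depth is unknown. Whether groups overlap therefore cannot be seen for any gene. Differences were read from the authors' test between groups, and a gene was called higher or lower at a deposited q below 0.05. The labels do not say whether the 2 libraries of a group came from separate cultures, so these tests may measure technical spread only. In bulk RNA, fewer cells with a transcript and less transcript per cell cannot be told apart.

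The overexpressed genes matched the labels. FKH1 had 1458 FPKM in Fkh1 OE, 8.23 FPKM in Fkh2 OE and 20.9 FPKM in no OE, and FKH2 had 13.3 FPKM in Fkh1 OE, 2220 FPKM in Fkh2 OE and 14.3 FPKM in no OE. The galactose genes GAL1, GAL2, GAL7 and GAL10 lay between 2942 and 7863 FPKM over all groups, and the 6 pheromone-induced genes between 269 and 2513 FPKM. Of the genes of S phase and mitosis, the mitotic cyclin genes CLB1 and CLB2 and the S-phase cyclin gene CLB5 were at 22.8 FPKM or less, CDC20 was between 38.9 and 47.0 FPKM, and the 4 histone genes were between 703 and 2480 FPKM. Several of these differed in Fkh2 OE against no OE: CLB1, CLB2 and the histone gene HHF1 were higher (log2 ratios 1.23, 0.84 and 0.86; q = 0.00832, 0.00415 and 0.000327 in the authors' deposited table). The histone genes HTA1 and HTB1 were lower in the same comparison (log2 ratios -0.88 and -0.76; q = 0.000327 and 0.00116 in the authors' deposited table). HHF1 was also higher in Fkh1 OE than in no OE, with 1148 and 703 FPKM (log2 0.71, q = 0.00393 in the authors' deposited table). Among the pheromone-induced genes, FUS1 and FIG1 fell in Fkh2 OE against no OE (log2 ratios -0.69 and -1.16; q = 0.00538 and 0.000327 in the authors' deposited table). The pheromone precursor genes MFA1 and MFA2 summed to 272002 FPKM in Fkh1 OE, 77113 FPKM in Fkh2 OE and 100825 FPKM in no OE, out of table sums of 2.16e+06 FPKM in Fkh1 OE, 1.75e+06 FPKM in Fkh2 OE and 1.78e+06 FPKM in no OE. Among other genes tied to mating type, STE6 rose in Fkh1 OE against no OE (log2 0.59, q = 0.0230 in the authors' deposited table). STE3 rose in Fkh2 OE, from 5.63 FPKM in no OE to 13.9 FPKM (log2 1.31, q = 0.00116 in the authors' deposited table). MFALPHA1 was called higher in Fkh1 OE, at 2.33 FPKM against 0 FPKM in no OE (q = 0.0147 in the authors' deposited table). The part of these differences in the results below was not tested.

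The 54 genes were expressed at moderate and similar levels in the 3 groups. Their median was 117 FPKM in Fkh1 OE, 119 FPKM in Fkh2 OE and 113 FPKM in no OE, against 59.0 FPKM in Fkh1 OE, 56.7 FPKM in Fkh2 OE and 60.2 FPKM in no OE for all entries above 0. Summed, they came to 7952 FPKM in Fkh1 OE, 8015 FPKM in Fkh2 OE and 7546 FPKM in no OE. This made up 0.368% of the FPKM of the table in Fkh1 OE, 0.458% in Fkh2 OE and 0.425% in no OE. The share was lowest in Fkh1 OE, which had the largest table sum, though the genes' own sum there was above that of no OE. The large-subunit genes had medians of 117 FPKM in Fkh1 OE, 117 FPKM in Fkh2 OE and 114 FPKM in no OE. The small-subunit genes had 116 FPKM in Fkh1 OE, 128 FPKM in Fkh2 OE and 105 FPKM in no OE, so that the medians of the subunits were close to each other in each group.

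Though the proteins work in a shared complex, their transcripts were of unequal level. The highest in no OE was MRPS12, the homologue of the bacterial protein S12 of the decoding centre, with 655 FPKM in Fkh1 OE, 623 FPKM in Fkh2 OE and 626 FPKM in no OE. MRPS16 followed with 335 FPKM in Fkh1 OE, 349 FPKM in Fkh2 OE and 347 FPKM in no OE. MRPS18, a homologue of bacterial S11, had 274 FPKM in Fkh1 OE, 278 FPKM in Fkh2 OE and 302 FPKM in no OE. These 3 genes differed by less than 1.2-fold between any groups, while MRPL39 and RSM19, the other two of the 5 highest, are described with the comparison of Fkh2 OE and Fkh1 OE. At the low end, RSM22, which encodes a methyltransferase-like protein of the small subunit, had 27.1 FPKM in Fkh1 OE, 36.0 FPKM in Fkh2 OE and 25.1 FPKM in no OE. MRPL4, MRPL3 and MRPL7 came next above it, between 30.8 and 43.5 FPKM in no OE. Without a spread within groups, neighbours in this order cannot be said to differ.

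**Figure D1:**
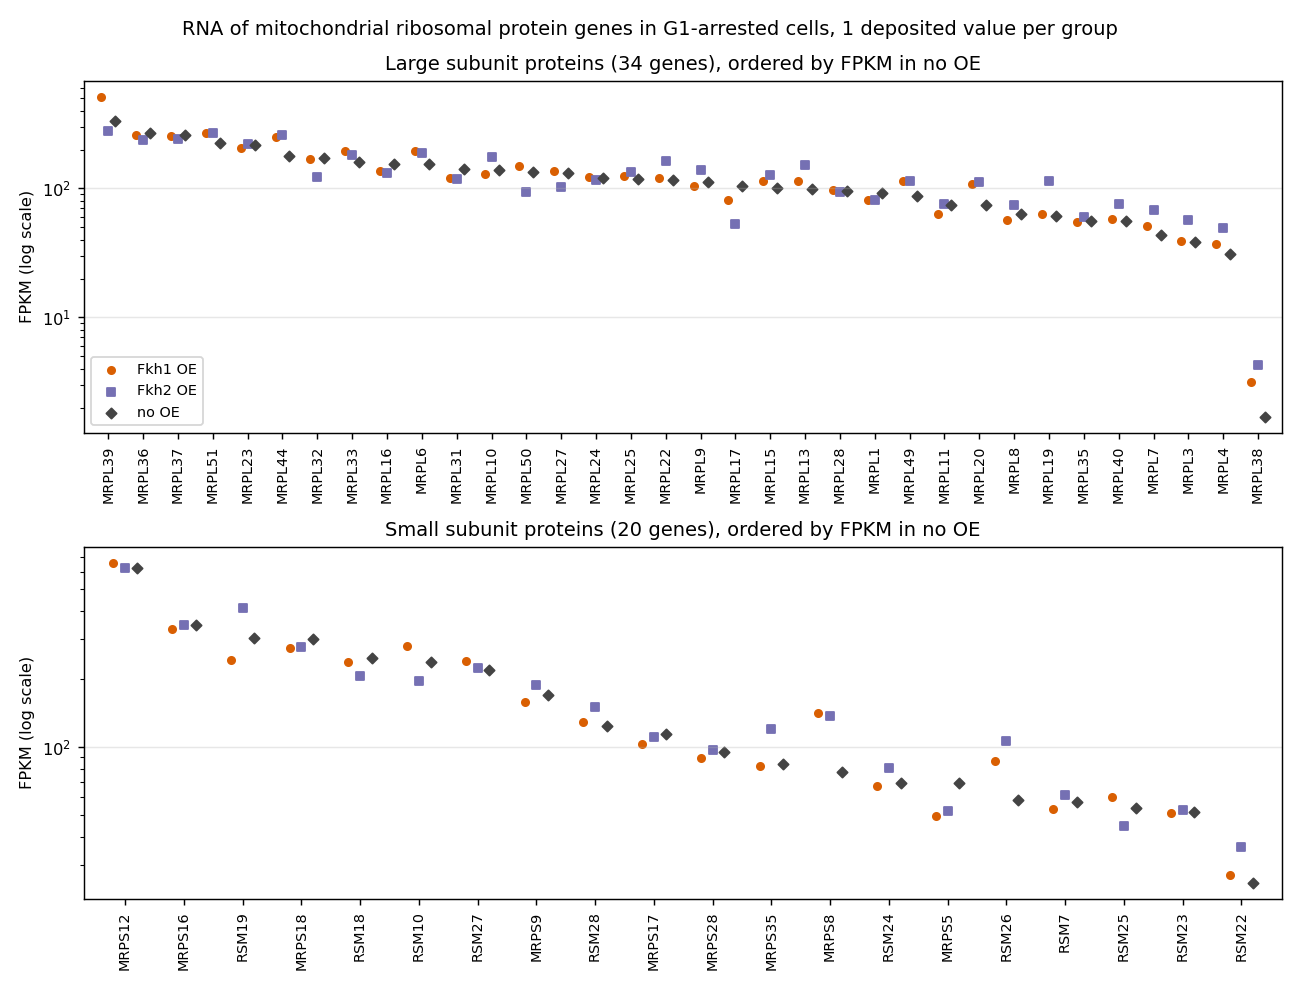
FPKM (vertical axis, log scale) of the 34 large-subunit genes (upper panel) and the 20 small-subunit genes (lower panel), ordered by the level in no OE. Each point is the authors' 1 value for Fkh1 OE (circles), Fkh2 OE (squares) or no OE (diamonds), with no error available; MRPL38 stands alone below 5 FPKM.

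MRPL38, the homologue of bacterial L14, was the lowest of all, with 3.13 FPKM in Fkh1 OE, 4.31 FPKM in Fkh2 OE and 1.70 FPKM in no OE. Its locus in the table is on chromosome XI (130634 to 131068, build R64), and a second entry, YKL169C, has the same locus. That entry had 238 FPKM in Fkh1 OE, 215 FPKM in Fkh2 OE and 176 FPKM in no OE, and the sources used here do not say whether the counting used strand. The values of MRPL38 alone are therefore uncertain, and its log2 ratios of 0.88 in Fkh1 OE and 1.34 in Fkh2 OE over no OE did not pass the test (q = 0.757 in Fkh1 OE and 0.607 in Fkh2 OE in the authors' deposited table). For the sum of both entries the log2 ratios were 0.44 in Fkh1 OE and 0.30 in Fkh2 OE over no OE. RSM7 also shared its locus (chromosome X, 638232 to 639051) with a higher entry, YJR114W. Neither YKL169C nor YJR114W is in the RefSeq annotation used here. RSM7, a homologue of bacterial S7, was at 53.3 FPKM in Fkh1 OE, 61.6 FPKM in Fkh2 OE and 57.2 FPKM in no OE, and YJR114W at 188 FPKM in Fkh1 OE, 253 FPKM in Fkh2 OE and 188 FPKM in no OE. The values of RSM7 alone are thus uncertain as well. For the sum of RSM7 and YJR114W the log2 ratios were -0.02 in Fkh1 OE and 0.36 in Fkh2 OE over no OE. MRPL9 and MRPL51 shared their loci with entries below 6 FPKM. None of these 4 genes was called in any comparison.

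Shorter genes had the higher levels. The 54 genes are 213 to 1887 bp long (median 706.5 bp), and across them gene length and FPKM in no OE had a Spearman correlation of -0.62 (-0.69 over the 53 genes other than MRPL38). Over 5348 entries of 1 name it was -0.43. These points come from the same libraries and FPKM itself divides by length, so the correlations are descriptions only.

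**Figure D2:**
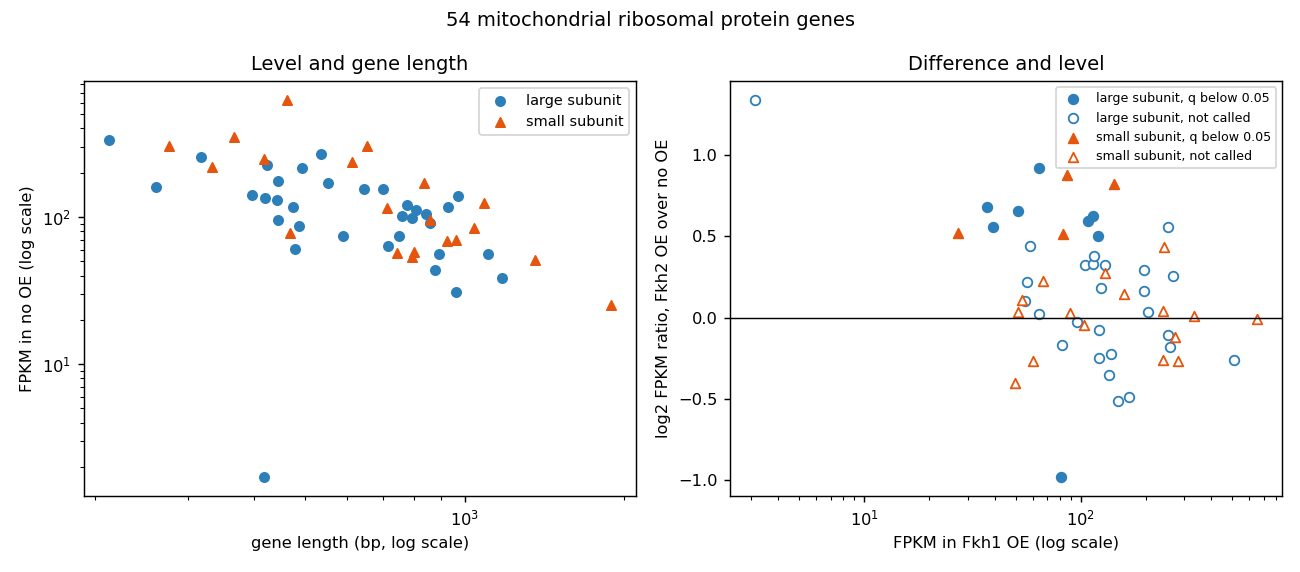
Left, FPKM in no OE against gene length in bp (both log scales) for the 54 genes, with circles for large-subunit and triangles for small-subunit genes. Right, the log2 FPKM ratio of Fkh2 OE over no OE against FPKM in Fkh1 OE (log scale), filled where the deposited q was below 0.05; the 18 genes with the highest FPKM in Fkh1 OE, from 149 to 655 FPKM, hold no filled point.

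In deposited FPKM, most of these transcripts were near their control level when Fkh1 was overexpressed. Of the 54 genes, 2 rose and 0 fell in Fkh1 OE against no OE, that is 3.70% and 0%, where 5.59% of all tested entries rose and 5.39% fell. At an unadjusted p below 0.05 of the authors' Cuffdiff test, 3 were higher and 1 was lower. With the deposited p-values adjusted within this comparison alone, 1 was called. The median log2 ratio was 0.02 for the 54 genes and 0.00 for the 6221 entries above 0 in all groups, and 42 of the 54 (77.8%) were within 1.2-fold, against 54.8% of those entries. This depends on the scale: with the FPKM of each group scaled to the same sum, the median became -0.26 for the 54 genes and -0.28 for all entries, and 23 of the 54 (42.6%) were within 1.2-fold, against 39.1% of the entries. The ratios of the 54 genes spread over an interquartile range of -0.10 to 0.19, against -0.22 to 0.24 for all entries.

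The 2 genes that rose with Fkh1 OE both encode small-subunit proteins. MRPS8, the homologue of bacterial S8 (chromosome XIII, 572248 to 572715, plus strand), had 142 FPKM in Fkh1 OE and 77.5 FPKM in no OE, a ratio of 1.83 (log2 0.87; q = 0.00214 in the authors' deposited table). RSM26, which encodes a mitochondria-specific protein related to superoxide dismutases (chromosome X, 618234 to 619034, plus strand), had 86.9 FPKM in Fkh1 OE and 58.2 FPKM in no OE, a ratio of 1.49 (log2 0.58; q = 0.0344 in the authors' deposited table). The call of RSM26 was lost with p-values adjusted within this comparison (adjusted p = 0.114, from the p-values of the authors' Cuffdiff test).

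Among the genes that did not pass, the largest ratios above 1 beside MRPL38 were those of MRPL39, MRPL20 and MRPL44. MRPL39, the homologue of bacterial L33, had 511 FPKM in Fkh1 OE and 336 FPKM in no OE (log2 0.61; q = 0.157 in the authors' deposited table). MRPL20, a mitochondria-specific protein of the large subunit, had 108 FPKM in Fkh1 OE and 74.1 FPKM in no OE, and lay nearest outside the threshold (log2 0.54; q = 0.0634 in the authors' deposited table). MRPL44, a mitochondria-specific protein of the large subunit, had 252 FPKM in Fkh1 OE and 177 FPKM in no OE (log2 0.51; q = 0.161 in the authors' deposited table). The lowest ratio was that of MRPS5, the homologue of bacterial S5, with 49.7 FPKM in Fkh1 OE and 69.1 FPKM in no OE (log2 -0.47; q = 0.0841 in the authors' deposited table). MRPL20, MRPL44 and MRPS5 were chosen for naming after their values were seen.

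With Fkh2 overexpressed, more of the genes differed from control cells, and nearly all that passed the test were higher. Of the 54 genes, 11 rose (20.4%) and 1 fell (1.85%) in Fkh2 OE against no OE, where 13.7% of all tested entries rose and 17.0% fell. The median log2 ratio was 0.13 for the 54 genes and -0.03 for the 6221 entries above 0. Of the 54 genes 35 had a ratio above 1 and 19 below 1, with an interquartile range of -0.12 to 0.44 on the log2 scale, against -0.45 to 0.35 for all entries. The changes were of moderate size: 9 of the 54 (16.7%) were past 1.5-fold, called or not, against 33.7% of all entries. This comparison uses the same no OE libraries as that of Fkh1 OE, so calls of a gene in both are not independent.

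**Figure D3:**
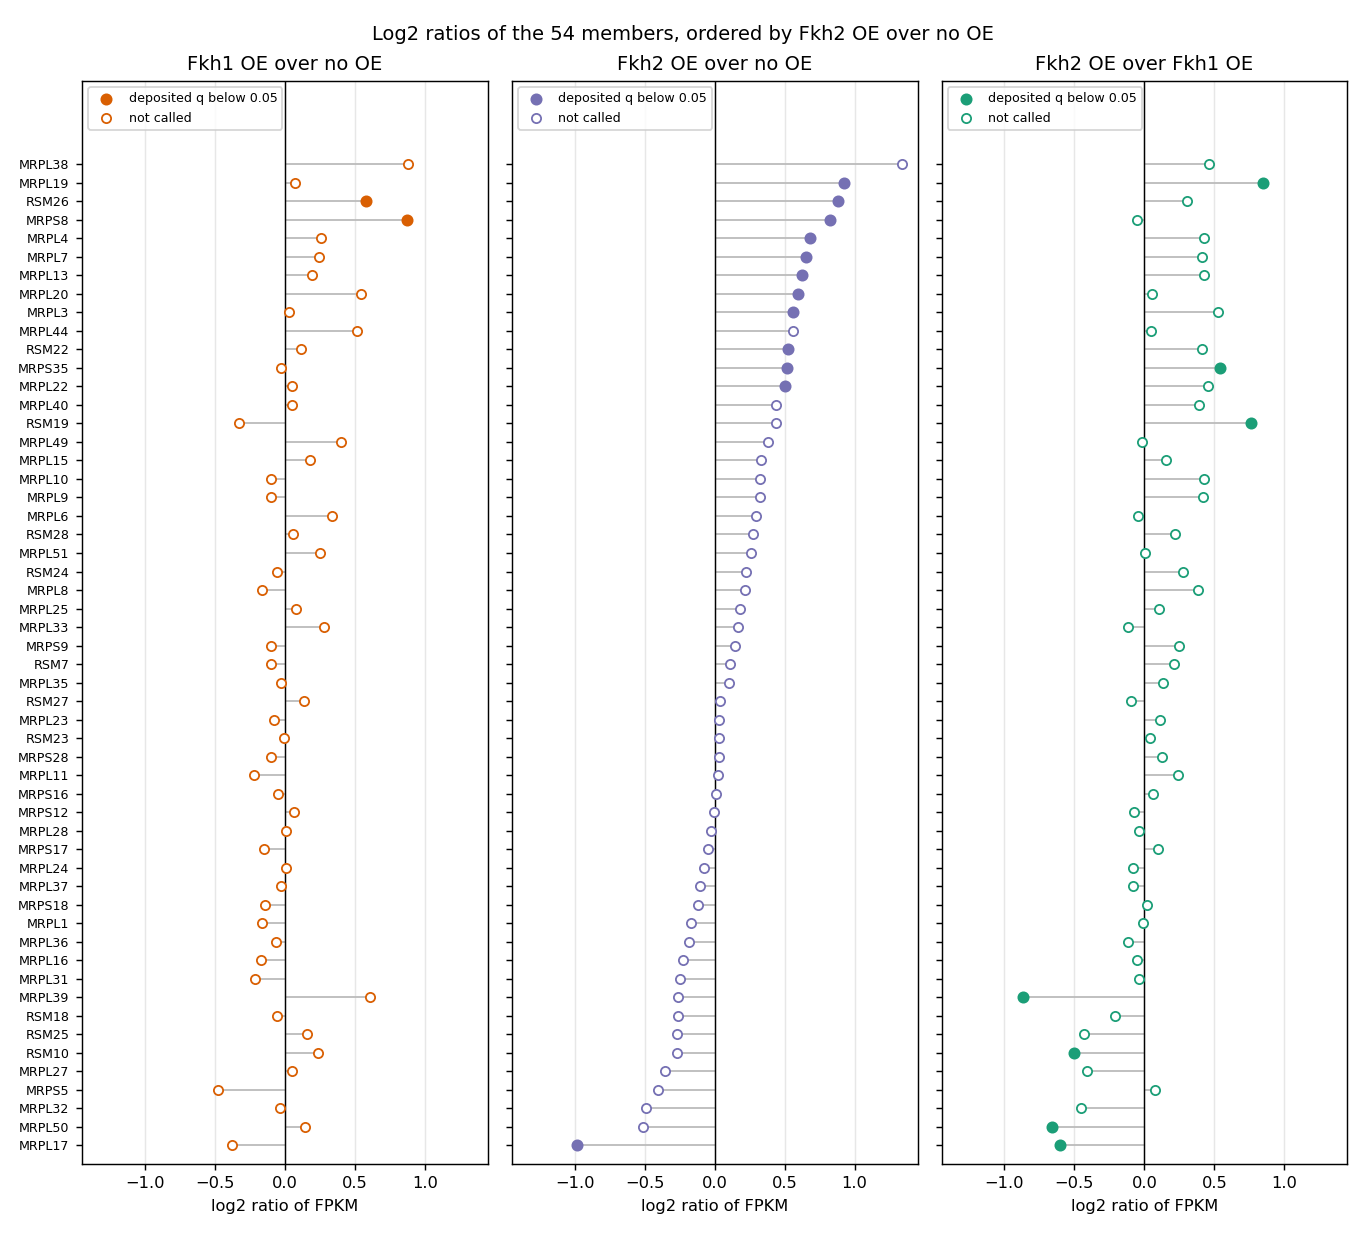
Log2 ratio of FPKM for each of the 54 genes in Fkh1 OE over no OE (left), Fkh2 OE over no OE (middle) and Fkh2 OE over Fkh1 OE (right), all in the order of the middle panel. Filled points had a deposited q below 0.05: 2 in the left panel, 12 in the middle one with MRPL17 as the only one below 0, and 7 in the right one.

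In the small subunit, 4 of 20 genes rose in Fkh2 OE (20.0%) and none fell by the authors' Cuffdiff test. At an unadjusted p below 0.05 of this test, 4 were higher and 0 lower. Beside this, 13.7% of all tested entries rose and 17.0% fell. RSM26 had 107 FPKM in Fkh2 OE and 58.2 FPKM in no OE, a ratio of 1.84 (log2 0.88; q = 0.000619 in the authors' deposited table). MRPS8 had 137 FPKM in Fkh2 OE and 77.5 FPKM in no OE, a ratio of 1.77 (log2 0.82; q = 0.00813 in the authors' deposited table). Both were thus above the control level under either factor, MRPS8 at nearly equal levels and RSM26 at 107 FPKM in Fkh2 OE and 86.9 FPKM in Fkh1 OE, a difference that was not called. RSM22 had 36.0 FPKM in Fkh2 OE and 25.1 FPKM in no OE (log2 0.52; q = 0.0398 in the authors' deposited table). MRPS35, a mitochondria-specific protein, had 120 FPKM in Fkh2 OE and 83.8 FPKM in no OE (log2 0.51; q = 0.0375 in the authors' deposited table), with 82.5 FPKM in Fkh1 OE.

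In the large subunit, 7 of 34 genes rose in Fkh2 OE (20.6%) and 1 fell (2.94%), where 13.7% of all tested entries rose and 17.0% fell. Of the 7 genes that rose, the largest ratio was that of the entry of MRPL19 (chromosome XIV, 292193 to 292669, minus strand). MRPL19 is the homologue of bacterial L11 at the base of the ribosomal stalk. It had 115 FPKM in Fkh2 OE and 60.7 FPKM in no OE, a ratio of 1.90 (log2 0.92; q = 0.0132 in the authors' deposited table). This entry also covers the overlapping reading frame YNL184C, which the authors' table does not separate from MRPL19. Fkh1 OE cells had 63.8 FPKM for it, close to the control.

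Of the other large-subunit genes that rose, MRPL4, MRPL7 and MRPL22 are homologues of bacterial proteins. MRPL4, the homologue of bacterial L29, had 49.3 FPKM in Fkh2 OE and 30.8 FPKM in no OE (log2 0.68; q = 0.0157 in the authors' deposited table). MRPL7, the homologue of bacterial L5, had 68.5 FPKM in Fkh2 OE and 43.5 FPKM in no OE (log2 0.66; q = 0.0172 in the authors' deposited table). MRPL22, the homologue of bacterial L22, which lines the peptide exit tunnel, had 164 FPKM in Fkh2 OE and 116 FPKM in no OE, and lay nearest inside the threshold (log2 0.50; q = 0.0481 in the authors' deposited table). With p-values adjusted within this comparison alone MRPL22 missed it (adjusted p = 0.0507, from the p-values of the authors' Cuffdiff test).

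MRPL13, MRPL20 and MRPL3 encode proteins that bacteria lack. MRPL13 had 153 FPKM in Fkh2 OE and 99.1 FPKM in no OE (log2 0.62; q = 0.0104 in the authors' deposited table). MRPL20 had 112 FPKM in Fkh2 OE and 74.1 FPKM in no OE (log2 0.60; q = 0.0350 in the authors' deposited table). MRPL3, which is related to ribonuclease III, had 56.6 FPKM in Fkh2 OE and 38.4 FPKM in no OE (log2 0.56; q = 0.0377 in the authors' deposited table). MRPL13 and MRPL3 were at 114 and 39.3 FPKM in Fkh1 OE, nearer to no OE than to Fkh2 OE, while MRPL20 was at 108 FPKM there.

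MRPL17, a mitochondria-specific protein of the large subunit (chromosome XIV, 171441 to 172286, minus strand), went the other way. It had 53.2 FPKM in Fkh2 OE and 105 FPKM in no OE, a log2 ratio of -0.98 (q = 0.000327 in the authors' deposited table). Fkh1 OE cells lay between these with 80.8 FPKM (log2 -0.38 over no OE; q = 0.158 in the authors' deposited table). Next to MRPL17 in the order of ratios stood MRPL50 and MRPL32, homologues of bacterial L9 and L32, which did not pass. MRPL32 had 122 FPKM in Fkh2 OE and 171 FPKM in no OE, and lay nearest outside the threshold (log2 -0.49; q = 0.0827 in the authors' deposited table). MRPL44, the largest positive ratio without a call beside MRPL38, had 260 FPKM in Fkh2 OE and 177 FPKM in no OE (log2 0.56; q = 0.113 in the authors' deposited table). RSM22, MRPS35, MRPL22 and MRPL32 were named after their values were seen, to account for every gene called in this comparison and the nearest outside it.

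By origin of the protein, the genes that rose in Fkh2 OE against no OE were spread over all classes. Beside the 13.7% of all tested entries that rose and the 17.0% that fell, counts in such small classes are descriptions only. Of the 21 large-subunit homologues of bacterial proteins 4 rose (19.0%), and of the 13 mitochondria-specific large-subunit proteins 3 rose (23.1%) and 1 fell (7.69%). Of the 12 small-subunit homologues 1 rose (8.33%), of the 7 mitochondria-specific small-subunit proteins 2 rose (28.6%), and RSM22, in a class of its own, rose. The median log2 ratio was 0.22 and 0.18 in the 2 large-subunit classes, 0.00 in the small-subunit homologues and 0.22 in the mitochondria-specific small-subunit proteins. Differences between classes were not tested.

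The genes that rose were not among the 18 with the highest FPKM in Fkh1 OE. Ordered by FPKM in Fkh1 OE, whose libraries stand on neither side of the ratio of Fkh2 OE over no OE, the 18 lowest genes (3.13 to 82.5 FPKM) held 6 that rose and the 1 that fell. The 18 in the middle (86.9 to 142 FPKM) held 5 that rose, and the 18 highest (149 to 655 FPKM) held 0 called either way by the authors' Cuffdiff test. Of all tested entries, 13.7% rose and 17.0% fell. Their shares by level were not counted, so these counts are descriptions only. The median log2 ratios were 0.22, 0.30 and 0.00, from the lowest to the highest. Across the 54 genes the Spearman correlation of this ratio with FPKM in Fkh1 OE was -0.34 (-0.31 without MRPL38), against 0.01 over the 6221 entries. The 18 highest genes were also the shortest, with a median of 433.5 bp, against 886.5 bp in the 18 lowest, so level and length cannot be told apart here.

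Set directly against each other, Fkh2 OE and Fkh1 OE differed in 7 of the 54 genes. Of these 3 were higher in Fkh2 OE (5.56%) and 4 lower (7.41%), where 7.24% of all tested entries were higher and 11.7% lower. The median log2 ratio of Fkh2 OE over Fkh1 OE was 0.07 for the 54 genes and -0.04 for the 6221 entries. Both shares lay below those of the table, and 31 of the 54 genes (57.4%) were within 1.2-fold, against 44.5% of the entries. With each group scaled to the same sum that order turned, with 14 of the 54 (25.9%) within 1.2-fold, against 34.6% of the entries.

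MRPL19 was higher in Fkh2 OE, with 115 FPKM, against 63.8 FPKM in Fkh1 OE (log2 0.85; q = 0.0210 in the authors' deposited table). RSM19, the homologue of bacterial S19, had 412 FPKM in Fkh2 OE and 243 FPKM in Fkh1 OE, with no OE between them at 304.7 FPKM (log2 0.76; q = 0.0169 in the authors' deposited table). MRPS35 had 120 FPKM in Fkh2 OE and 82.5 FPKM in Fkh1 OE (log2 0.54; q = 0.0317 in the authors' deposited table). The control lay apart from Fkh2 OE and close to Fkh1 OE for MRPL19 and MRPS35, whereas RSM19 was called in neither comparison with no OE. RSM19 and MRPS12 are neighbours on the minus strand of chromosome XIV, 229 bp apart, and MRPS12 differed by log2 -0.07 between Fkh2 OE and Fkh1 OE. MRPL3, nearest outside the threshold, had 56.6 FPKM in Fkh2 OE and 39.3 FPKM in Fkh1 OE (log2 0.53; q = 0.0515 in the authors' deposited table).

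The 4 genes lower in Fkh2 OE than in Fkh1 OE included 3 of the large subunit. MRPL39, the shortest of the 54 genes with 213 bp, had 280 FPKM in Fkh2 OE and 511 FPKM in Fkh1 OE, with 336 FPKM in no OE (log2 -0.87; q = 0.0389 in the authors' deposited table). MRPL50 had 94.1 FPKM in Fkh2 OE and 149 FPKM in Fkh1 OE, with 134 FPKM in no OE (log2 -0.66; q = 0.0392 in the authors' deposited table). MRPL17 had 53.2 FPKM in Fkh2 OE and 80.8 FPKM in Fkh1 OE (log2 -0.60; q = 0.0233 in the authors' deposited table). RSM10, the homologue of bacterial S10, had 197 FPKM in Fkh2 OE and 280 FPKM in Fkh1 OE, with 238 FPKM in no OE (log2 -0.51; q = 0.0416 in the authors' deposited table). For MRPL39 and RSM10 the control lay between the OE groups, and neither was called against it. With p-values adjusted within this comparison alone, MRPL39, MRPL50, RSM10 and MRPS35 missed the threshold (adjusted p between 0.0587 and 0.0739).

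Over the 3 comparisons together, 16 of the 54 genes were called at least once (29.6%), 5 of them in more than 1 comparison (9.26%), and 38 in none. Of the 6129 entries with a test in every comparison, 37.2% were called at least once and 21.2% in more than 1 comparison. Their loci are spread over 14 chromosomes, with 9 genes on chromosome IV, 8 on XIV and 7 on XIII, and 28 lie on the plus and 26 on the minus strand. Of the 54 genes 32 (59.3%) have a divergent upstream neighbour in the RefSeq annotation of R64, against 51.7% of 5992 genes. Of the 11 genes that rose in Fkh2 OE against no OE, 8 are in such a pair. For 1 of these, MRPL20, the partner rose as well, where 13.7% of all tested entries rose.

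The rest of the mitochondrial translation apparatus was read from lists of genes chosen by function. Counts in such small lists are descriptions only. Of all tested entries, 13.7% rose and 17.0% fell in Fkh2 OE against no OE. In Fkh1 OE against no OE, 5.59% rose and 5.39% fell. Of 23 mitochondrial ribosomal proteins with other names, 6 rose (26.1%) and none fell in Fkh2 OE against no OE by the authors' Cuffdiff test (6 higher and 0 lower also at an unadjusted p below 0.05). Their median log2 ratio was 0.28, but the signs were nearly even, with 12 of the 23 above 0 and 11 below 0. Among these, MRP4, the homologue of bacterial S2, had 67.6 FPKM in Fkh2 OE and 35.6 FPKM in no OE (log2 0.92). In Fkh1 OE against no OE 1 of the 23 rose (4.35%), MRP49 of the large subunit, with 191 FPKM in Fkh1 OE and 118 FPKM in no OE (log2 0.69; q = 0.0233 in the authors' deposited table). Between Fkh2 OE and Fkh1 OE 5 of the 23 were higher (21.7%) and 1 lower (4.35%), where 7.24% of all tested entries were higher and 11.7% lower. The lower one was MRP2, a homologue of bacterial S14, with 134 FPKM in Fkh2 OE and 213 FPKM in Fkh1 OE (log2 -0.67).

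Of the 13 mitochondrial aminoacyl-tRNA synthetase genes, which charge tRNAs for this ribosome, 5 rose (38.5%) and 1 fell (7.69%) in Fkh2 OE against no OE. In Fkh1 OE against no OE, 0 passed by the authors' Cuffdiff test (1 higher and 0 lower at an unadjusted p below 0.05). MST1, the threonyl-tRNA synthetase, had the largest ratio with 38.4 FPKM in Fkh2 OE and 14.7 FPKM in no OE (log2 1.39). Of 15 translation factors 3 rose (20.0%) and 1 fell (6.67%) in Fkh2 OE, and 1 rose (6.67%) and 2 fell (13.3%) in Fkh1 OE, both against no OE. The elongation factor gene GUF1 fell under both, to 8.12 FPKM in Fkh1 OE and 8.38 FPKM in Fkh2 OE, against 13.7 FPKM in no OE (log2 -0.76 for Fkh1 OE and -0.71 for Fkh2 OE; q = 0.0121 and 0.0193, in that order, in the authors' deposited table). Of 15 translational activators 2 rose and 2 fell in Fkh2 OE against no OE (13.3% each), near the shares of all tested entries. ATP22, needed for translation of the mitochondrial ATP6 mRNA, rose under both, to 105 FPKM in Fkh1 OE and 168 FPKM in Fkh2 OE, against 75.0 FPKM in no OE (log2 0.49 for Fkh1 OE and 1.17 for Fkh2 OE).

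OXA1, the inner-membrane insertase that takes up the products of this ribosome, differed between all groups. It had 43.9 FPKM in Fkh1 OE, 79.7 FPKM in Fkh2 OE and 29.9 FPKM in no OE (log2 0.55 for Fkh1 OE and 1.41 for Fkh2 OE over no OE; q = 0.0412 and 0.000327 in the authors' deposited table). Of the 8 genes of the list for insertion and assembly at the inner membrane, 2 rose (25.0%) and none fell in Fkh2 OE against no OE by the authors' Cuffdiff test (2 higher and 1 lower at an unadjusted p below 0.05). Of 24 genes of protein import into mitochondria 7 rose (29.2%) and none fell in Fkh2 OE against no OE (8 higher and 1 lower at an unadjusted p below 0.05 of the same test). PAM18, a subunit of the import motor, had 166 FPKM in Fkh2 OE and 81.8 FPKM in no OE (log2 1.02). Of the 24, 15 had a ratio above 1 and 9 below 1. Between Fkh2 OE and Fkh1 OE, 3 import genes were higher and 3 lower (12.5% each), beside 7.24% and 11.7% of all tested entries. Among the lower ones, TOM7 had 151 FPKM in Fkh2 OE and 440 FPKM in Fkh1 OE (log2 -1.55; q = 0.0220 in the authors' deposited table). A further list held 34 subunits of the respiratory chain and ATP synthase, the complexes that contain the products of mitochondrial translation. Of these, 4 rose and 4 fell in Fkh2 OE against no OE (11.8% each), beside 13.7% and 17.0% of all tested entries. At an unadjusted p below 0.05 of the authors' Cuffdiff test, 10 were higher and 4 lower. A ratio above 1 was found for 25 of the 34, and their median log2 ratio was 0.22. QCR8 of complex III had 1462 FPKM in Fkh2 OE and 2699 FPKM in no OE (log2 -0.88).

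Ribosomal proteins of the cytosol showed larger shares of calls than their mitochondrial counterparts. Of 131 tested genes 30 rose (22.9%) and none fell in Fkh1 OE, and 60 rose (45.8%) and none fell in Fkh2 OE, both against no OE by the authors' Cuffdiff test and with 0 lower also at an unadjusted p below 0.05. Of all tested entries 5.59% rose in Fkh1 OE and 13.7% in Fkh2 OE. The median log2 ratios were 0.33 for Fkh1 OE and 0.50 for Fkh2 OE, against 0.02 and 0.13 for the 54 mitochondrial genes. These medians depend on the scale: scaling each group to the same sum shifts every log2 ratio of Fkh1 OE over no OE by -0.28. The cytosolic genes were also higher in level, with a median of 1179 FPKM in no OE against 113 FPKM. The part of level in the shares of calls was not tested. The difference between the lists was not tested.

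**Figure D4:**
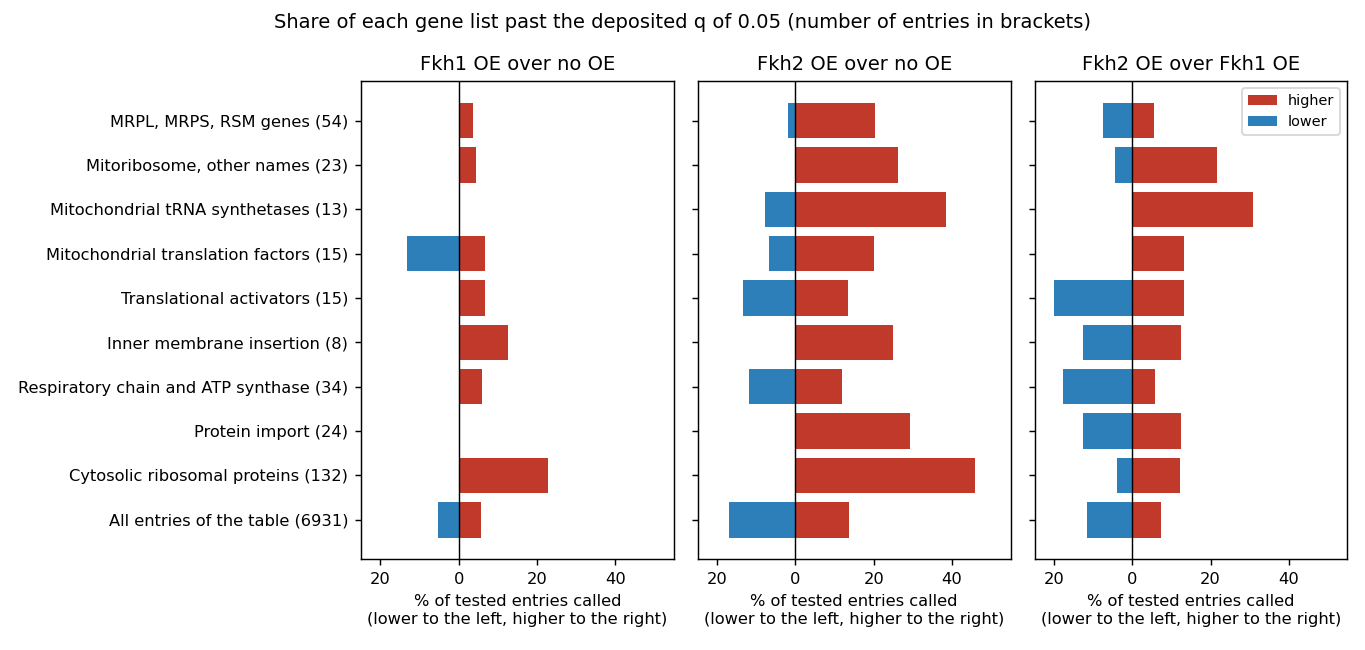
Share of tested entries called higher (bars to the right of 0) or lower (bars to the left), in percent, for each gene list and for the whole table, in Fkh1 OE over no OE, Fkh2 OE over no OE and Fkh2 OE over Fkh1 OE. The number of entries is in brackets; in the middle panel 20.4% of the 54 genes were higher and 1.85% lower, against 13.7% and 17.0% of the table.

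Of the regulators looked at, PUF3 had 34.5 FPKM in Fkh1 OE, 27.2 FPKM in Fkh2 OE and 37.0 FPKM in no OE, and its log2 ratio of -0.44 in Fkh2 OE over no OE was not called (q = 0.0843 in the authors' deposited table). Genes of the HAP complex, which activates genes of respiration, moved in different directions. HAP4, its activating subunit, had 148 FPKM in Fkh1 OE, 159 FPKM in Fkh2 OE and 109 FPKM in no OE, and rose in Fkh2 OE against no OE (log2 0.55; q = 0.0244 in the authors' deposited table). HAP3 rose to 131 FPKM in Fkh2 OE, against 58.3 FPKM in no OE (log2 1.17; q = 0.000327 in the authors' deposited table). HAP2 fell to 18.0 FPKM in Fkh2 OE, against 31.4 FPKM in no OE (log2 -0.80; q = 0.0175 in the authors' deposited table). HAP5 of this complex was not called, and neither was HAP1, a separate regulator. MTF1, a factor of mitochondrial transcription, fell to 24.0 FPKM in Fkh2 OE, against 38.3 FPKM in no OE (log2 -0.68; q = 0.0207 in the authors' deposited table), while RPO41, the mitochondrial RNA polymerase, was at 28.9 FPKM in Fkh2 OE and 22.2 FPKM in no OE and was not called. MGM101, a protein of mitochondrial DNA maintenance, fell to 133 FPKM in Fkh2 OE, against 198 FPKM in no OE (log2 -0.58; q = 0.0185 in the authors' deposited table).

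The components encoded in mitochondrial DNA were not called in any comparison. VAR1, the small-subunit protein made in the mitochondrion, had 2.61 FPKM in Fkh1 OE, 5.40 FPKM in Fkh2 OE and 4.06 FPKM in no OE, with the lowest q between Fkh2 OE and Fkh1 OE (log2 1.05; q = 0.0531 in the authors' deposited table). The 21S ribosomal RNA had 358 FPKM in Fkh1 OE, 397 FPKM in Fkh2 OE and 371 FPKM in no OE. The 15S ribosomal RNA had 41.5 FPKM in Fkh1 OE, 37.8 FPKM in Fkh2 OE and 42.3 FPKM in no OE. The libraries were made from polyadenylated RNA, and yeast mitochondrial RNA carries no stable poly(A) tail, so these levels do not measure its amount.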

How the data were processed

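RNA of 6 libraries (2 each of Fkh1 OE, Fkh2 OE and no OE) was used. The deposited FPKM, 1 per entry and group, were made by the authors; Bowtie2, TopHat2, Cufflinks, Cuffdiff and the build R64 are named in the submitters' processing notes, with no roles or settings. Each comparison of a pair of groups came with a p-value and a q-value, deposited by the authors, under column names that Cuffdiff writes. Depth and strand use are not given in the sources used here. A planned fit of values per library could not be made from 1 value per group. Ratios were recomputed from the FPKM with no pseudocount, because 262 of the deposited log2 ratios (log2 scale, by the authors) were damaged. Coordinates, strands and lengths were read from the RefSeq table of R64, in which all 54 genes were found; loci of shared entries are the deposited ones, 1-based. Of the 6931 entries, 106 hold several names. The number of group names or columns matched to no sample was 0, and the replication tables were not used here.

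Named in each comparison were the 8 largest calls either way, the 2 largest ratios without a call, and for levels the 5 highest and the 5 lowest in no OE; genes named outside this are marked. Genes, lists and rule were chosen with earlier results of these data known, so no count is independent support. Alternatives changed the q threshold (0.01, 0.1), the adjustment of p-values, a minimum mean of 10 FPKM, a 1.5-fold minimum, entries with 1 name, a pseudocount of 1 FPKM and the scaling; leaving out shared loci was added after seeing the data. The adjustment was tested on simulated data. Python 3.11.15, pandas 2.3.3, NumPy 2.4.6, SciPy 1.17.1 and Matplotlib 3.10.9 were used.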

Additional observations from a re-analysis of the deposited data

How the results depend on the processing

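The table gives 1 value per group, so no library could be left out. No paired analysis was possible because the deposited values carry no replicate numbers. In Fkh1 OE against no OE, 2 genes were called; the count was 1 at q below 0.01, 1 with p-values adjusted within the comparison, 1 with at least 1.5-fold, and 4 at q below 0.1 (3 higher, 1 lower). In Fkh2 OE against no OE, 12 were called, and 3 at q below 0.01 (2 higher, 1 lower). Between Fkh2 OE and Fkh1 OE, 7 were called, 0 at q below 0.01 by the authors' Cuffdiff test (9 higher and 5 lower at an unadjusted p below 0.05), 11 at q below 0.1 (7 higher, 4 lower) and 3 with p-values adjusted within the comparison (2 higher, 1 lower). Other alternatives left these counts within 1.5 times. At q below 0.05, 5.59% of all tested entries were higher and 5.39% lower in Fkh1 OE over no OE. These shares were 13.7% and 17.0% in Fkh2 OE over no OE, and 7.24% and 11.7% in Fkh2 OE over Fkh1 OE. Shares of all entries at the other settings are not given here. The counts at those settings describe only how the calls of the 54 genes move. Scaling each group to the same sum of FPKM shifted every log2 ratio by -0.28 in Fkh1 OE over no OE, 0.02 in Fkh2 OE over no OE and 0.31 in Fkh2 OE over Fkh1 OE. The medians of the 54 genes became -0.26, 0.15 and 0.37, against medians of all entries of -0.28, -0.01 and 0.27. These shifts are smaller than every called ratio, so they could turn the direction of no called gene. The deposited q-values were kept, so whether the calls would pass after scaling was not tested. Some called ratios came nearer to 0. RSM26 went from log2 0.58 to 0.29 in Fkh1 OE over no OE, and RSM10 from -0.51 to -0.20 in Fkh2 OE over Fkh1 OE. Others moved away from 0, such as RSM19 in Fkh2 OE over Fkh1 OE, from 0.76 to 1.07. Of 27 values of named genes, 6 lost their call with p-values adjusted within the comparison; these are given with the genes.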

Other observations

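Upstream neighbours of called genes were counted by their own calls, and counts this small are descriptions only. In Fkh2 OE against no OE, 11 called genes have an upstream neighbour with an entry of its own. Of these neighbours 1 was called in the same direction, 1 in the other and 9 in neither. Of all tested entries 13.7% were called higher and 17.0% lower in this comparison. In Fkh2 OE against Fkh1 OE, 3 of 6 such neighbours were called in the same direction and 3 were not called. There, 7.24% of all tested entries were higher and 11.7% lower. In Fkh1 OE against no OE neither of the 2 was called, where 5.59% of all tested entries were higher and 5.39% lower. The pairs below are those with a call on both sides; they were named after their values were seen, and shared control was not tested. DBP6, a helicase gene of cytosolic ribosome assembly that is divergent from RSM19 with 267 bp between them, had 33.9 FPKM in Fkh1 OE, 49.2 FPKM in Fkh2 OE and 20.2 FPKM in no OE. It was called higher in Fkh2 OE than in Fkh1 OE, as RSM19 was (log2 0.54; q = 0.0354 in the authors' deposited table). SNF12, a subunit gene of the SWI/SNF chromatin remodeller that is divergent from MRPL50 with 224 bp between them, had 6.40 FPKM in Fkh2 OE and 13.9 FPKM in Fkh1 OE, and was called lower as MRPL50 was (log2 -1.12; q = 0.00116 in the authors' deposited table). ERG6, a gene of ergosterol synthesis that lies upstream of MRPL39 on the same strand with 322 bp between them, had 398 FPKM in Fkh2 OE and 785 FPKM in Fkh1 OE (log2 -0.98; q = 0.000327 in the authors' deposited table). DBP6, SNF12 and ERG6 were also called in Fkh2 OE against no OE (log2 1.28, -1.50 and -0.79), where RSM19, MRPL50 and MRPL39 were not. PRP16, a splicing factor gene that is divergent from MRPL20 with 175 bp between them, had 18.7 FPKM in Fkh2 OE and 12.5 FPKM in no OE (log2 0.58; q = 0.0292 in the authors' deposited table). The upstream neighbour of MRPL22, TDA7, was lower in Fkh2 OE than in no OE (log2 -0.72; q = 0.00237 in the authors' deposited table) while MRPL22 was higher.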
